A study of Mus musculus with 4 samples.

Results

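The RNA levels of 7 immune checkpoint, adhesion and costimulatory genes are described here in cytokine-exposed mouse islets: Cd274, Cd47, Ceacam1, Il4i1, Cd40, Icam1 and Vcam1. The 7 genes were found by symbol among the 31053 genes of the deposited count tables. Islets of adult male C57BL/6 mice (C57BL6/J in the study's methods) were pooled and divided into 4 samples, which were left untreated or exposed as intact islets for 6 h to IL-1β, to IFN-γ, or to both cytokines together. Each sample then gave 1 library of droplet-based single-cell RNA sequencing (scRNA-seq), in which each transcript is tagged with its cell's barcode and with a unique molecular identifier (UMI), by which molecules and not reads are counted. With 1 library per condition, differences between conditions lack a replicate check and were not tested. Mice cannot be told apart within a library, and a condition cannot be told apart from its library.

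In the islet, an endocrine cell displays molecules on its surface that decide how a passing leukocyte attaches to it and what that leukocyte does next. Cd274 encodes PD-L1, which binds the inhibitory receptor PD-1 on T cells, and Cd47 encodes the "don't eat me" ligand of SIRPα on macrophages. Ceacam1 encodes an adhesion receptor with inhibitory signalling motifs, and Il4i1 a secreted L-amino-acid oxidase that restrains T cells by degrading amino acids around them. Cd40 encodes a costimulatory receptor of the TNF-receptor family, engaged by CD40 ligand on activated T cells. Icam1 and Vcam1 encode the endothelial adhesion molecules ICAM-1 and VCAM-1, whose leukocyte partners are the integrins LFA-1 and VLA-4. IL-1β signals chiefly through NF-κB, and PD-L1 is a textbook IFN-γ-responsive gene while ICAM-1 and VCAM-1 are textbook NF-κB-responsive ones.

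The 7 genes lie at separate places of the mouse genome (GRCm38 coordinates of GENCODE M21, all annotated as protein-coding). Cd274 spans chr19:29367455-29388095 on the plus strand, Cd40 chr2:165055627-165072948 (plus), Icam1 chr9:21015985-21028817 (plus) and Vcam1 chr3:116109949-116129688 (minus). Cd47 spans chr16:49800533-49915010 (plus), Ceacam1 chr7:25461707-25477603 (minus) and Il4i1 chr7:44816387-44840809 (plus). Il4i1 overlaps Nup62 on the same strand, so its reads and those of Nup62 may not be separable everywhere, and it overlaps Atf5 and Tbc1d17 on the other strand. Cd274, Icam1, Vcam1 and Ceacam1 each overlap 1 annotated gene on the other strand, and whether the counting used strand was not stated in what was read here.

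Promoter sequence is shown for 3 genes that stood for the 3 response patterns found below: Icam1, which was highest with both cytokines, Cd274, which followed IFN-γ, and Il4i1, which followed IL-1β. Each stretch is the 250 bases before a RefSeq transcript start (GRCm38.p6, 5′ to 3′, plus strand), and capitals mark matches to GGNNNTTCC (an NF-κB-type motif) or to an IRF-type motif (GAAA, 2 bases of any kind, GAAA) on either strand. The stretches lie at chr9:21015690-21015939 for Icam1, chr19:29367188-29367437 for Cd274 and chr7:44836038-44836287 for Il4i1, the last within the annotated span of that gene.
Icam1: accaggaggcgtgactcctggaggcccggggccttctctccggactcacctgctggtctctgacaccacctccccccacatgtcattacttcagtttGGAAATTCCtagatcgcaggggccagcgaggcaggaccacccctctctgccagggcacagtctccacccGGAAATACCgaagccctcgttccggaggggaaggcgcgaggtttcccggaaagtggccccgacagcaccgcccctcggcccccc
Cd274: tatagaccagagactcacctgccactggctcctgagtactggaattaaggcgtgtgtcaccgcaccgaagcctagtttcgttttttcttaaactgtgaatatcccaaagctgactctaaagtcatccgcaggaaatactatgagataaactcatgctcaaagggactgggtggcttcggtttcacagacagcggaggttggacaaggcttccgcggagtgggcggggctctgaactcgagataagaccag
Il4i1: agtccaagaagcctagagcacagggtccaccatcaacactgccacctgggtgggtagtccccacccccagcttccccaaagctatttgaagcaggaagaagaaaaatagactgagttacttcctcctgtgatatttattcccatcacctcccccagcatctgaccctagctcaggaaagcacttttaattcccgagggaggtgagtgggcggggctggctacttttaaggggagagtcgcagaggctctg
The Icam1 stretch held GGAAATTCC beginning 153 bases before the start and GGAAATACC (the NF-κB-type motif on the minus strand) 84 bases before it, which do not overlap. The Cd274 and Il4i1 stretches held neither motif, and the same was true of those of Cd47 and Ceacam1. Among 32851 promoter stretches of this length, 15.7% held the NF-κB-type motif and 2.98% the IRF-type motif. A match is a description of the letters and was not tested as a binding site, and a missing match says only that these letters are not within this stretch. Promoter entries were matched for 5 of the 7 genes and were not used here for Cd40 and Vcam1.

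The tables held 3486 barcodes for the untreated library, 2911 for IL-1β, 3694 for IFN-γ and 2480 for both cytokines. The limits were 200 to 4000 genes per cell and no more than 12% of UMIs from mitochondrial genes, which left 1521, 2018, 2122 and 1810 cells with 23035443, 15667390, 20618281 and 20138917 UMIs. Kept untreated cells were the deepest at a median of 15454 UMIs, and cells of the IL-1β library the shallowest at 7462.5. No 2 libraries shared more than 2 barcodes of kept cells. Of the 7471 kept cells, 5008 (67.0%) were called β-like from the insulin share of their UMIs, with 1195, 1194, 1320 and 1299 cells in the order untreated, IL-1β, IFN-γ and both, which is the order of every list of 4 values below. A β-like cell held a median of 17078, 8317, 10992 and 12209 UMIs and an α-like cell 10891, 6450, 8072 and 8605. There were 91, 347, 301 and 173 α-like, 57, 148, 171 and 96 δ-like, and 29, 32, 58 and 46 pancreatic polypeptide (PP)-like cells. Cells with markers of other types were endothelial-like (29, 34, 46 and 22), macrophage-like (32, 37, 44 and 31), mesenchymal-like (10, 20, 20 and 10), ductal-like (15, 13, 22 and 6) and acinar-like (8, 16, 22 and 13).

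The class names held against their markers in most classes. Within a class, each library had its own main cluster when the cells were clustered. These were k01, k08, k14 and k17 for β-like cells (69.5%, 77.3%, 80.6% and 81.2% of them), k07, k11, k10 and k18 for α-like cells and k04, k12, k16 and k19 for δ-like cells, so changes within a class compare cells of different clusters. Of the 91 untreated α-like cells, 79 lay in k07, a cluster named PP-like, and of the 96 δ-like cells with both cytokines, 84 lay in k19, a cluster named β-like. Insulin made up a median of 29.2% of the UMIs of a β-like cell, glucagon 16.4% of an α-like cell, somatostatin 8.17% of a δ-like cell and pancreatic polypeptide 30.9% of a PP-like cell. In δ-like cells pancreatic polypeptide made up a median of 1.89%. The weakest name is mesenchymal-like, whose cells carried a median of 3 mesenchymal markers, and 58 of its 60 cells fell in a cluster named endothelial-like when the cells were clustered instead. A further 229 cells with mixed hormones, 195 without a leading type and 40 with a hormone beside markers of another type were left out of the classes. Near the limits of the rule lay 133 cells with 2 to 4% hormone UMIs. In 118 cells the leading hormone made up 75 to 85% of insulin, glucagon and somatostatin UMIs.

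A level is given as UMIs of the gene per 1000000 UMIs of the class (CPM) with an exact Poisson 95% interval, and a share of cells with an exact binomial 95% interval. Both cover counting error only. Fold changes are ratios of CPM with an exact conditional interval. A gene counted as higher or lower where log2((CPM + 1)/(CPM + 1)) reached 2-fold, among genes with a mean of at least 5 CPM over the 4 libraries of the class. Levels are of RNA, and a level does not give the amount of protein at the cell surface.

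In β-like cells, 6 of the 7 genes passed the level filter and rose at least 2-fold with IL-1β and with both cytokines, and 4 of the 6 did so with IFN-γ, while Vcam1 was close to 0 throughout. The count of 4 with IFN-γ was 2 with a pseudocount of 5 CPM, without Cd40 and Icam1, 3 with no upper gene limit, without Cd40, and 3 with hormone genes out of the totals, without Cd47. Without the 1 cell that held 4 of the 22 Cd40 UMIs with IFN-γ, left out after the data had been seen, Cd40 was at a log2 change of 0.85 and no longer counted. The count was 5, with Il4i1, in thinned cells and with a pseudocount of 0.1 CPM. Cd40, Icam1, Ceacam1 and Il4i1 had larger ratios in the IL-1β library than in the IFN-γ library, Cd274 the reverse, and Cd47 rose between 2.09-fold and 2.57-fold in all 3 treated libraries. Cd40 and Icam1 were highest with both cytokines, whereas Ceacam1, Il4i1 and Cd47 were highest with IL-1β alone. Among all 9218 genes that passed the filter in β-like cells, 14.9% counted as higher and 2.92% as lower with IL-1β. The shares were 3.79% and 0.0759% with IFN-γ and 9.82% and 6.48% with both, and none of the 6 genes was lower in any of these. The median log2 change of the 6 genes was 4.97, 1.04 and 5.93 for the same 3 comparisons, beside 0.39, 0.31 and 0.07 over all genes. Of these genes, all but Cd47 passed the level filter through the treated libraries alone, so these counts and medians are a description and not support for a difference.

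**Figure D1:**
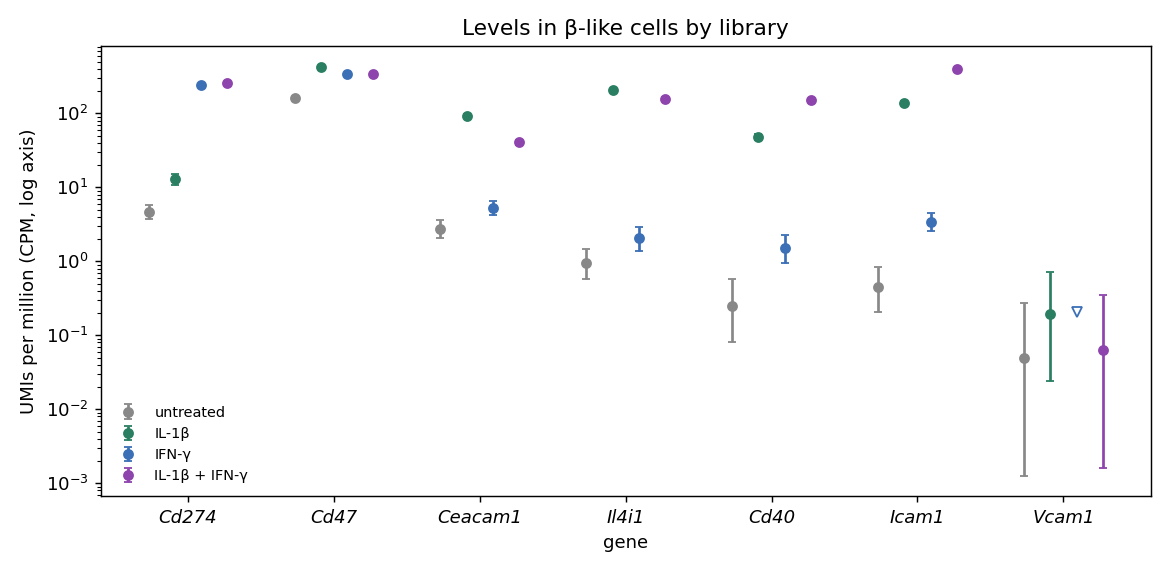
Level of each gene in β-like cells (CPM, log axis) in each of the 4 libraries, with exact Poisson 95% intervals as bars and an open triangle at the floor of 3 UMIs for the library without a UMI of Vcam1. Cd274 stands high in both libraries with IFN-γ, Ceacam1 and Il4i1 in both with IL-1β, and Cd40 and Icam1 reach 152 and 405 CPM with both cytokines.

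The scale of all β-like values moves with the hormone transcripts, which made up 47.6%, 28.3%, 34.2% and 37.9% of β-like UMIs. With the hormone genes left out of the totals, the median change of all genes went to -0.06, -0.01 and -0.19 on the log2 scale for IL-1β, for IFN-γ and for the combination. The split of all genes into higher and lower then went from 1373 and 269 to 659 and 877 with IL-1β, from 349 and 7 to 230 and 68 with IFN-γ, and from 905 and 597 to 778 and 1221 with both. On that scale Cd47 fell short of 2-fold with each treatment, at 1.88, 1.69 and 1.76, and Cd274 came to 2.02-fold with IL-1β, short of the limit once 1 CPM is added. Of the 6 genes, 4, 3 and 5 then counted as higher in these 3 comparisons. Cd40, Icam1, Ceacam1 and Il4i1 stayed at least 2-fold higher on either scale in both libraries with IL-1β, and so did Cd274 in both libraries with IFN-γ.

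**Figure D2:**
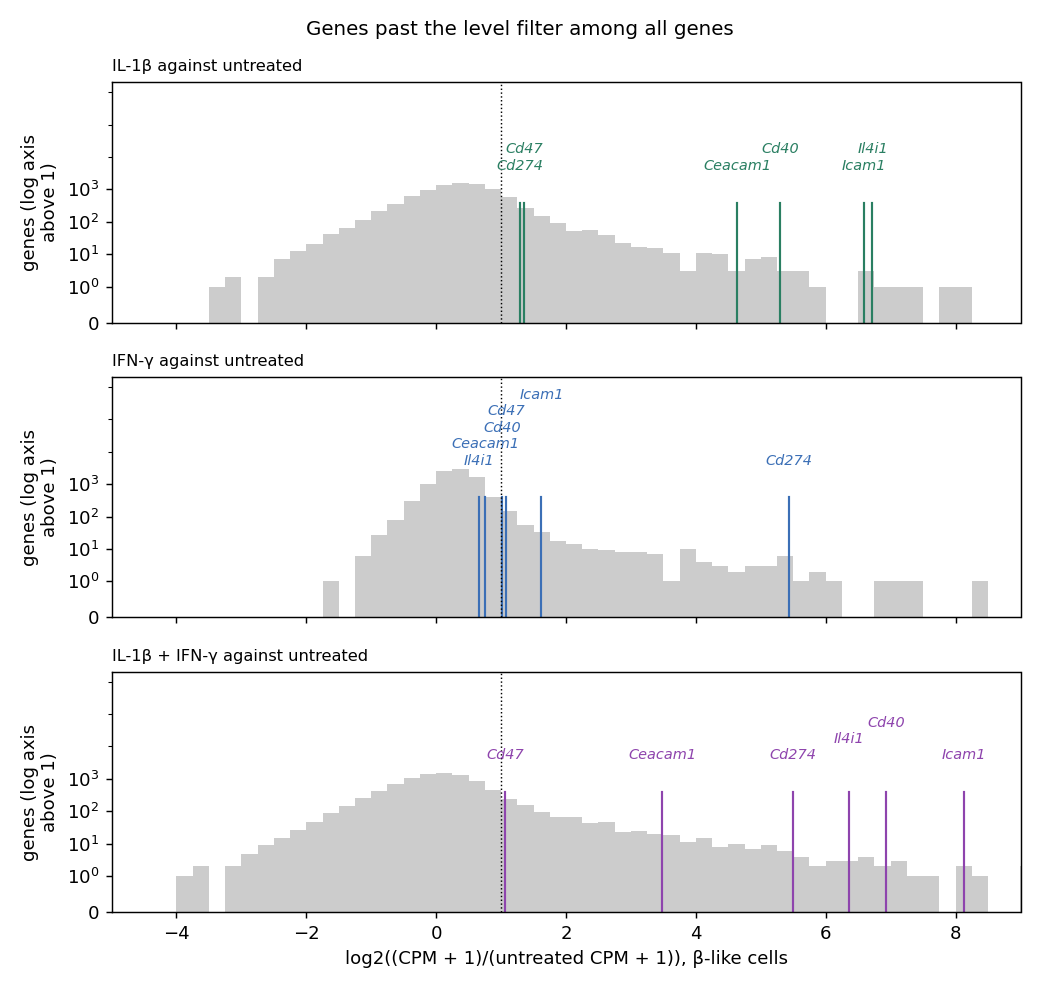
Distribution of the log2 change of 9218 genes in β-like cells for each treatment against untreated cells (y axis, number of genes, log scale above 1), with vertical lines for the 6 genes that passed the level filter and a dotted line at 2-fold. The lines for Icam1, Cd40 and Il4i1 lie far in the upper tail in both panels with IL-1β, and that of Cd274 in both panels with IFN-γ.

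Cd274, the gene of PD-L1, was measured at 4.68 CPM (3.79-5.73) in untreated β-like cells, 12.9 (10.8-15.4) with IL-1β, 244.8 (237-253) with IFN-γ and 256 (248.6-264) under the combination. Both libraries with IFN-γ thus stood far above the other two, and their intervals overlapped. Against untreated cells the ratios of these 3 libraries were 2.76 (2.11-3.64), 52.3 (42.6-64.8) and 54.7 (44.6-67.9), and adding IL-1β to IFN-γ changed the level 1.05-fold (1.001-1.096). The share of β-like cells with a Cd274 UMI was 7.11%, 9.63%, 81.1% and 83.7%. With every cell thinned to 4000 UMIs, which left out 45, 77, 58 and 31 shallower β-like cells, the share was 2.0%, 5.46%, 57.8% and 57.7%, so that the 2 libraries with IFN-γ could not be separated at equal depth.

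The IFN-γ pattern of Cd274 extended to every class except the acinar-like cells. In δ-like cells it stood at 4.18, 1.31, 234.8 and 409.7 CPM, in α-like cells at 10.8, 8.40, 143 and 124 CPM, and in PP-like cells at 5.22, 0, 193 and 169 CPM. The level under the combination was 1.74 times (1.47-2.07) that with IFN-γ alone in δ-like cells and 0.867 times (0.723-1.04) in α-like cells, from 1 library each, and the difference between classes was not tested. The β-like level was 1.71 times the α-like level with IFN-γ and 2.07 times with both, and 1.04 (0.925-1.18) and 0.626 (0.552-0.712) times the δ-like level.

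In both libraries with IFN-γ, endothelial-like cells had the highest Cd274 levels of any class. Their values in the 4 libraries were 0, 6.85, 899 and 1051 CPM (0, 1, 259 and 215 UMIs). No UMI was found without cytokines and at most 1 without IFN-γ, so the rise was at least 60.9-fold with IFN-γ and at least 71.2-fold with both. Macrophage-like cells followed at 30.3, 115, 458 and 414 CPM, and they alone among the non-endocrine classes held Cd274 above 1 UMI without IFN-γ. Their ratios were 3.79 (1.70-9.26) with IL-1β, 15.1 (7.77-33.7) with IFN-γ and 13.7 (6.95-30.7) in the combined library. Mesenchymal-like cells had 0, 0, 98.4 and 323 CPM, ductal-like cells 0, 0, 179 and 144 CPM, and acinar-like cells 5 UMIs in all, each in the library with both cytokines. In the order of levels, the top 2 entries, endothelial-like with both and with IFN-γ, had overlapping intervals, and so did many entries below them.

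**Figure D3:**
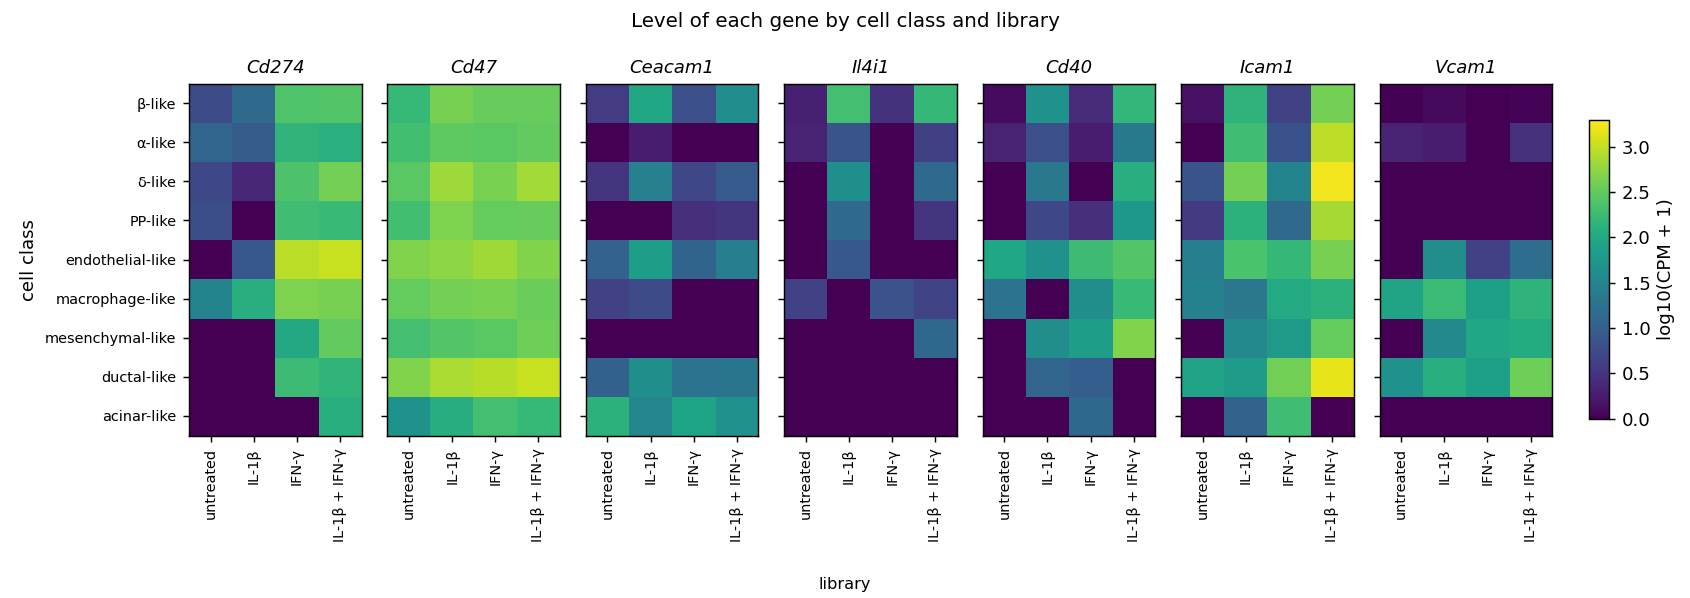
Level of the 7 genes in 9 classes of cells and 4 libraries, as log10(CPM + 1) by colour. Brighter colours are higher levels. The Cd274 panel is bright in the libraries with IFN-γ in most classes, and that of Il4i1 in β-like cells in both libraries with IL-1β. Vcam1 is seen in macrophage-like, mesenchymal-like and ductal-like cells and is near 0 in the hormone classes.

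Cd47, the ligand of SIRPα, was the member detected in most cells without treatment, with a UMI in 87.9% of untreated β-like cells. Its level was 163 CPM (158-169) untreated, 419.6 (407-432) with IL-1β, 345 (335-355) with IFN-γ and 341 (332-350.2) under the combination. All 3 treated libraries stood above the untreated one, and IL-1β alone gave the highest value, with an interval apart from the others. The ratios were 2.57 (2.46-2.69), 2.11 (2.02-2.21) and 2.09 (2.0-2.18), and the combined library was 0.813 (0.781-0.846) times that with IL-1β and 0.988 (0.951-1.03) times that with IFN-γ.

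The share of β-like cells with a Cd47 UMI at 4000 UMIs per cell went from 46.4% to 77.3%, 71.9% and 71.9%. δ-like cells had 288, 657, 431 and 704 CPM, which is 2.28-fold (1.88-2.77), 1.49-fold (1.24-1.82) and 2.44-fold (2.01-2.98) their untreated level. α-like cells had 202, 303, 282 and 323 CPM and stayed under 2-fold in each library. Endothelial-like cells held 467, 541, 666 and 469 CPM and macrophage-like cells 329.7, 411, 434 and 347 CPM, so that Cd47 with both cytokines was 1.0-fold (0.748-1.35) and 1.05-fold (0.784-1.41) the untreated level there. Ductal-like cells reached 1041 CPM with both from 475 untreated, a ratio of 2.19 (1.47-3.27).

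Ceacam1, the adhesion and inhibitory receptor, had 55, 938, 77 and 652 UMIs in β-like cells. These are 2.74 CPM (2.06-3.57) untreated, 92.0 (86.2-98.1) with IL-1β, 5.32 (4.20-6.65) with IFN-γ and 40.8 (37.8-44.1) in the combined library. The level was high only in the 2 libraries with IL-1β, and with both cytokines it was 0.444 (0.401-0.491) times that with IL-1β alone. Against untreated cells the ratios were 33.6 (25.6-44.9), 1.94 (1.36-2.79) and 14.9 (11.3-20). The share of thinned β-like cells with a UMI was 1.04%, 24.7%, 1.90% and 11.2%.

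Ceacam1 was nearly absent from the α-like cells, with 2 UMIs in 347 cells of the IL-1β library and none in the other libraries. The β-like level was 110 times (30.3-906) the α-like level with IL-1β and at least 21.1 times with both. δ-like cells had 2.09, 26.3, 4.01 and 7.79 CPM (1, 20, 5 and 5 UMIs), so the β-like level was 3.50 times (2.25-5.75) theirs with IL-1β and 5.24 times (2.23-16.2) with both. In acinar-like cells the level was 132.5, 30.7, 80.4 and 46.1 CPM from 14, 3, 7 and 2 UMIs in 8, 16, 22 and 13 cells. That is the only class where Ceacam1 was highest without cytokines, and it rests on 2 of the 8 untreated cells.

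Il4i1, the secreted amino-acid oxidase, was measured at 0.947 CPM (0.570-1.48) untreated, 204 (196-213) with IL-1β, 2.07 (1.40-2.96) with IFN-γ and 159 (152-165) under the combination in β-like cells, from 19, 2083, 30 and 2533 UMIs. Only the libraries with IL-1β had high levels, and the level with both was 0.776 (0.732-0.823) times that with IL-1β alone. The ratio to untreated cells was 216 (138-359) with IL-1β, 2.19 (1.19-4.11) with IFN-γ and 168 (107-279) in the combined library. With cells thinned to 4000 UMIs these ratios were 464, 5.01 and 351, against 2 untreated cells with a UMI. A UMI was carried by 46.3% of β-like cells with IL-1β and 44.8% with both, and at 4000 UMIs per cell the shares were 0.174%, 35.5%, 0.713% and 29.1%.

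In both libraries with IL-1β, Il4i1 was higher in β-like cells than in any other class. α-like cells held 1, 15, 0 and 5 UMIs (1.08, 6.30, 0 and 3.22 CPM) and δ-like cells 0, 33, 0 and 8 UMIs (0, 43.4, 0 and 12.5 CPM). The β-like level was 32.4 times (19.6-58.1) the α-like level with IL-1β and 49.2 times (21.1-152) with both, and 4.71 times (3.34-6.86) and 12.7 times (6.45-29.5) the δ-like level. With both cytokines, 1 δ-like cell held 3 of the 8 UMIs. Without that cell, left out after the data had been seen, the δ-like level was 7.90 CPM, so that the last ratio would be larger. In thinned α-like cells a UMI was found in 2.56% with IL-1β and 0.595% with both. PP-like, endothelial-like, macrophage-like and mesenchymal-like cells had at most 3 UMIs in any library, and ductal-like and acinar-like cells had none.

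The genes that overlap Il4i1 moved less. In β-like cells Nup62, a nuclear pore protein gene on the same strand, had 10.8, 20.2, 13.1 and 21.9 CPM, and Tbc1d17 on the other strand 20.8, 20.5, 22.4 and 23.7 CPM. Atf5, a stress-responsive transcription factor gene on the other strand, had 246, 408, 295 and 435 CPM, so its highest level was in the library with both cytokines and that of Il4i1 in the library with IL-1β. How many reads the overlaps moved between these genes was not tested.

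Cd40, the costimulatory receptor, rose from 5 UMIs in 1195 untreated β-like cells to 492 with IL-1β, 22 with IFN-γ and 2426 under the combination. The levels were 0.249 CPM (0.0809-0.581), 48.3 (44.1-52.7), 1.52 (0.952-2.30) and 152 (146-158). Cd40 with IFN-γ alone was thus far below either library with IL-1β, while IFN-γ on top of IL-1β multiplied the IL-1β level by 3.15 (2.86-3.48). The ratio to untreated cells was 194 (82.4-599) with IL-1β, 6.10 (2.25-20.6) with IFN-γ and 609.7 (261-1879.5) in the combined library. At 4000 UMIs per cell, 0.0870%, 16.0%, 0.713% and 37.4% of β-like cells had a UMI.

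In α-like cells Cd40 was at 1.08, 5.46, 0.825 and 20.6 CPM, the lowest endocrine level of the library with both cytokines but not of the other libraries. In δ-like cells it was at 0, 19.7, 0 and 119.95 CPM, at least 3.14-fold higher with IL-1β and at least 19.1-fold with both, and in PP-like cells at 0, 4.26, 1.84 and 55.8 CPM. The β-like level with both cytokines was 7.37 times (5.21-10.8) the α-like level and 1.27 times (1.01-1.61) the δ-like level. Endothelial-like cells had Cd40 before treatment, at 93.5 CPM (56.3-146), beside 48.0, 180.5 and 264 CPM in the treated libraries, a ratio of 0.513 (0.182-1.28) with IL-1β and 2.83 (1.65-5.05) with both. Macrophage-like cells had 16.8, 0, 41.4 and 164 CPM and mesenchymal-like cells 0, 41.9, 69.5 and 467 CPM, the latter at least 12.9-fold higher with both. In each of these classes except the ductal-like and acinar-like ones, with at most 2 UMIs of Cd40, the library with both cytokines had the highest level.

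Icam1, the ligand of LFA-1, followed the order of Cd40 in β-like cells with 9, 1405, 50 and 6467 UMIs. Its level was 0.448 CPM (0.205-0.851) untreated, 138 (131-145) with IL-1β, 3.45 (2.56-4.55) with IFN-γ and 405 (395-415) under the combination. The combined library stood highest and the 4 intervals did not overlap. The level with both cytokines was 2.94 times (2.77-3.12) that with IL-1β, and at 4000 UMIs per cell 58.2% of β-like cells had a UMI with both, beside 0.261%, 29.7% and 0.713%.

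β-like cells were not the class with the most Icam1. δ-like cells had 6.27, 405, 29.7 and 1763 CPM, α-like cells 0, 191, 5.78 and 938 CPM, and PP-like cells 2.61, 132, 12.9 and 712 CPM. With both cytokines the β-like level was therefore 0.432 times (0.408-0.457) the α-like and 0.230 times (0.216-0.245) the δ-like level. The rise in δ-like cells was 64.6-fold (21.9-315) with IL-1β, 4.73-fold (1.5-24.0) with IFN-γ and 281-fold (96.0-1366) with both, and in α-like cells at least 59.0-fold with IL-1β and at least 290-fold with both. With IFN-γ alone 1 cell held much of the Icam1, namely 20 of the 37 UMIs in δ-like, 7 of the 14 in α-like and 21 of the 50 in β-like cells. Without that cell, left out after the data had been seen, the levels were 13.7, 2.90 and 2.0 CPM, and the ratio to untreated cells was 2.19 (0.634-11.7) in δ-like and 4.47 (2.06-10.7) in β-like cells. Shares of thinned cells gave the same order, with Icam1 in 86.7% of δ-like, 75% of α-like, 69.0% of PP-like and 58.2% of β-like cells of the combined library.

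Icam1 in the vessel-lining, endothelial-like cells was at 24.6, 233, 156 and 416 CPM, with ratios of 9.47 (3.69-31.0), 6.35 (2.53-20.5) and 16.9 (6.96-53.4). Here the ratio with IFN-γ alone lay above 1 by its interval, and the level (114-209 CPM) overlapped that with IL-1β (161-326 CPM). Ductal-like cells were at 77.6, 65.4, 397 and 1489.9 CPM, and macrophage-like cells at 26.9, 19.1, 103 and 131 CPM. In both, the level with IL-1β alone lay within the interval of the untreated one, at a ratio of 0.843 (0.241-2.77) in ductal-like and 0.711 (0.157-2.65) in macrophage-like cells. With IFN-γ alone the ratio was 5.12 (2.50-12.2) and 3.84 (1.75-9.59).

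**Figure D4:**
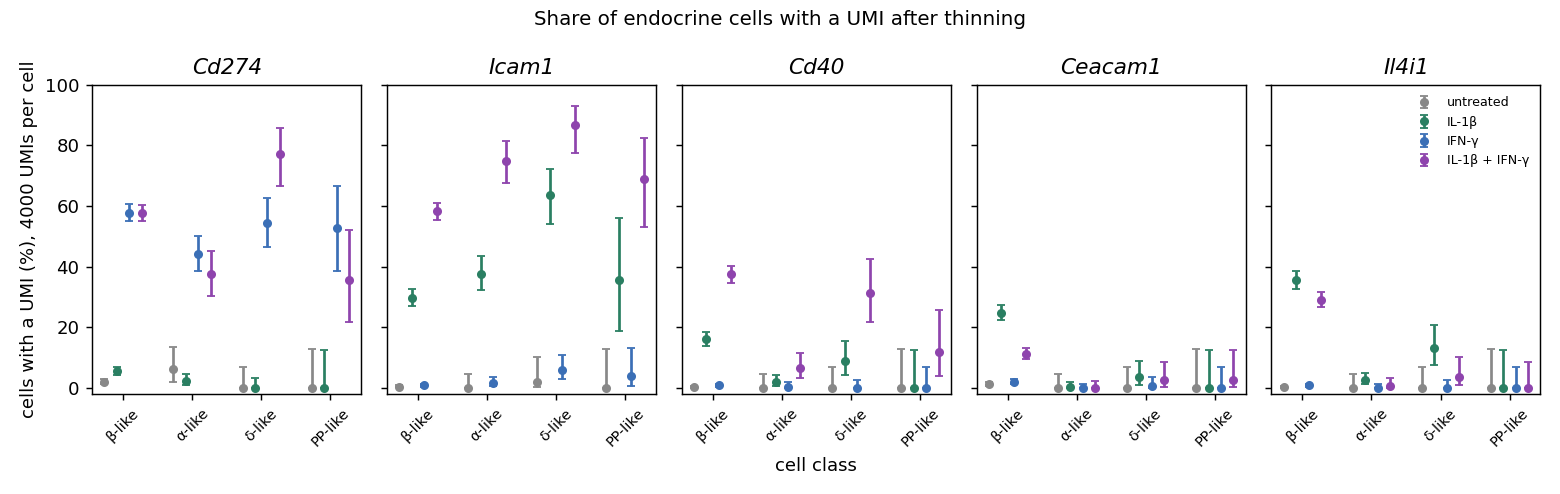
Share of cells with at least 1 UMI (%) after thinning each cell to 4000 UMIs, for 5 of the genes in β-like, α-like, δ-like and PP-like cells of the 4 libraries, with exact binomial 95% intervals. Il4i1 and Ceacam1 are seen mainly in β-like cells in the libraries with IL-1β, whereas Icam1 in the combined library is in 58.2% of β-like and 86.7% of δ-like cells.

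Vcam1, the ligand of VLA-4, had 1, 2, 0 and 1 UMIs in all β-like cells of the 4 libraries and was at 0 in every δ-like and PP-like cell. α-like cells held 6 UMIs in all, at 1.08, 0.840, 0 and 1.93 CPM. Its levels lay instead in macrophage-like cells, at 84.1 CPM (54.4-124), 177 (125-244), 70.9 (45.5-106) and 138 (97.2-190.2). The ratio to untreated macrophage-like cells was 2.10 (1.23-3.64) with IL-1β, 0.843 (0.461-1.54) with IFN-γ and 1.64 (0.962-2.84) in the combined library. Ductal-like cells had 48.5, 119.8, 72.6 and 377 CPM, 7.78-fold (2.85-26.4) higher with both from 21 and 5 UMIs in 6 and 15 cells, and mesenchymal-like cells 0, 34.9, 92.6 and 108 CPM. Endothelial-like cells, which carry VCAM-1 in many inflamed vessels, had 0, 6, 1 and 3 UMIs.

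Markers of other cell types were measured in the β-like cells. Those of T and NK cells, 4 of 4, were at 0 in every library. Macrophage markers summed to 73.8, 51.4, 48.0 and 147 CPM there, of which C1qa alone gave 68.9, 36.3, 40.1 and 135 CPM beside 4007 CPM in the macrophage-like cells of all libraries together, and 2 to 4 of the 12 markers were at 0. Endothelial markers summed to 5.13, 2.75, 5.18 and 2.63 CPM. Ductal markers had the highest sum, at 222, 251, 215 and 211 CPM, of which Krt7 gave 204, 149, 196 and 175 CPM, with 1 or 2 of 7 markers at 0. Acinar markers summed to 44.0, 15.6, 37.1 and 14.9 CPM, lower in the libraries with IL-1β, with Ctrb1 at 17.9, 6.47, 17.7 and 6.95 CPM and at most 1 of 9 markers at 0. Insulin transcripts, the most abundant free RNA in islet preparations, made up 0.547%, 0.171%, 0.222% and 0.137% of the UMIs of α-like cells beside 42.1%, 21.7%, 28.2% and 33.3% of those of β-like cells. Over all cells outside the macrophage-like class, C1qb and C1qc were at 0.83 and 0.64 CPM, beside 4727.5 and 3186 CPM within it. The sum of the macrophage markers in β-like cells, mostly C1qa, was highest in the library with both cytokines. In macrophage-like and β-like cells of that library Cd274 stood at 414 and 256 CPM, Cd40 at 164 and 152 CPM, Cd47 at 347 and 341 CPM and Icam1 at 131 and 405 CPM, and Il4i1 had 1 UMI in the former. The part of the macrophage and acinar transcripts in the β-like levels was not tested.

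In α-like cells ductal markers summed to 2522, 9087, 3356 and 4400 CPM, of which Spp1, the gene of osteopontin, gave 2372.5, 8985, 3211 and 4289 CPM, with 2 to 4 of 7 markers at 0. In δ-like cells acinar markers summed to 535, 344, 381 and 336 CPM, of which Cela1 gave 314, 251, 248 and 231 CPM, and ductal markers to 318, 442, 247 and 221 CPM. Macrophage markers summed to 51.8, 18.1, 26.4 and 52.8 CPM in α-like and 104.5, 32.9, 68.1 and 99.7 CPM in δ-like cells, with C1qa the most abundant and 7 to 9 of 12 markers at 0. The part of these transcripts in the α-like and δ-like levels was not tested.

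In α-like cells, 4 of the 7 genes passed the level filter, without Ceacam1, Il4i1 and Vcam1. With IL-1β 2 of these 4 (Cd40 and Icam1) rose at least 2-fold beside 8.08% higher and 8.84% lower of all 9715 genes, with IFN-γ 2 (Cd274 and Icam1) beside 5.6% higher and 1.75% lower, and with both 3 (Cd274, Cd40 and Icam1) beside 9.21% higher and 13.8% lower. In δ-like cells, 6 genes passed, without Vcam1. There, 5 of 6 were higher with IL-1β (11.5% of all genes), while Cd274 was lower from 1 against 2 UMIs (12.4% of all genes lower), 2 of 6 were higher with IFN-γ (6.81%, with 5.5% lower) and 6 of 6 with both (12%, with 21.7% lower). Ceacam1 with both rests on 5 UMIs and fell short of 2-fold without the 1 cell that held 2 of them. The median log2 change of the genes that passed was 1.11, 1.62 and 3.39 in α-like cells beside -0.06, 0.08 and -0.17 over all genes, and 3.76, 0.64 and 5.03 in δ-like cells beside -0.01, -0.03 and -0.23. Cd40 and Icam1 in α-like cells, and Cd274, Cd40, Ceacam1 and Il4i1 in δ-like cells, were under 5 CPM untreated and passed only through treated libraries, so these counts and medians too are a description and not support for a difference.

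The response to both cytokines was set against the sum of the responses to each. For each gene, the rise in CPM with IL-1β and the rise with IFN-γ were added and subtracted from the rise with both, with an interval from the Poisson variances (normal approximation). In β-like cells the combined rise exceeded the sum for Cd40 by 102 CPM (95-110) and for Icam1 by 264 CPM (252-276), or 3.08 and 2.88 times the sum. It fell short of the sum for the others that IL-1β raised most, with differences of -260.4 CPM (-279 to -241) for Cd47, -53.7 CPM (-60.6 to -46.9) for Ceacam1 and -46.8 CPM (-57.6 to -36.0) for Il4i1. For Cd274 the difference was 3.41 CPM (-8.10 to 14.9), an interval that includes 0. With hormone genes out of the totals, Cd274 was at 8.93, 18.1, 372 and 413 CPM. On that scale the combined rise exceeded the sum, and an interval was not computed.

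For Icam1 and Cd40 the excess was found in each endocrine class. Icam1 exceeded the sum by 741 CPM (689.9-793) in α-like, 1335 CPM (1222-1448) in δ-like and 570 CPM (479-660) in PP-like cells, and Cd40 by 15.4 CPM (7.31-23.5), 100 CPM (71.6-129) and 49.7 CPM (26.4-72.9). Cd274 exceeded the sum by 178 CPM (121-234) in δ-like cells. The interval included 0 in α-like (-40.9 to 7.66 CPM) and PP-like cells (-71.85 to 34.3 CPM), as in β-like ones on the scale of all UMIs. The differences between classes were not tested, since each rests on 1 library per condition.

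The combined library was also compared with each single treatment in β-like cells. With both against IL-1β, 3 of the 6 genes were at least 2-fold higher (Cd274, Cd40 and Icam1) beside 1.76% of all genes, and Ceacam1 was lower beside 3.7%. That call ends with hormone genes out of the totals, where Ceacam1 had 128 CPM with IL-1β and 65.7 CPM in the combined library, a log2 difference of -0.95. With both against IFN-γ, 4 of the 6 were higher (Cd40, Icam1, Ceacam1 and Il4i1) beside 4.48% of all genes. With the hormone genes left out of the totals, the split of all genes into higher and lower went from 162 and 341 to 260 and 189 in the first comparison and from 413 and 834 to 533 and 865 in the second. Cd274 with both was 19.8 times (16.7-23.7) its level with IL-1β, and Il4i1 76.6 times (53.5-114) its level with IFN-γ.

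Individual β-like cells differed widely. With both cytokines, a β-like cell with Icam1 carried a median of 5 UMIs of it and at most 48, and the tenth of cells with most Icam1 held 36.3% of its UMIs. The same share was 29.5% for Cd274, 23.6% for Cd47, 53.6% for Il4i1 and 67.2% for Ceacam1, so that Ceacam1 was the most unevenly spread of these. Depth and low levels enter such shares, and their part was not tested.

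Cd274, Cd40 and Icam1 occurred together in 620 of 1299 β-like cells exposed to both cytokines, or 47.7% (45-50.5). This was the case in 1.51% of cells with IL-1β, 0.227% with IFN-γ and 0 of 1195 untreated cells, which allows a share of up to 0.251% at 3 cells of the total (exact binomial upper bound 0.308%). Of the cells with both cytokines 8.08% had none of the 3 genes. In α-like cells 10.4% and in δ-like cells 35.4% had all 3. At 4000 UMIs per cell the shares with both cytokines were 18.4% (16.3-20.6) in β-like, 3.57% (1.32-7.61) in α-like and 24.1% (15.4-34.7) in δ-like cells, so that the order of β-like and δ-like cells turned and their intervals overlapped.

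In the combined library, thinned cells with a UMI of Cd40 more often had one of Icam1, Il4i1 or Cd274. With both cytokines, Icam1 was seen in 72.8% (68.5-76.7) of the 474 β-like cells with Cd40 and in 49.5% (46.0-53.0) of the 794 without it, at median depths of 12670 and 12081 UMIs before thinning. Il4i1 was seen in 38.6% (34.2-43.2) of cells with Cd40 and 23.4% (20.5-26.5) of cells without it, and Cd274 in 65.0% and 53.4%. With IL-1β alone, Il4i1 was in 53.6% (46.0-61.1) of the 179 cells with Cd40 and 32.1% (29.1-35.2) of the 938 without, and Cd274 in 4.47% (1.95-8.62) and 5.65% (4.26-7.33). Ceacam1 was in 13.7% (10.7-17.1) and 9.70% (7.73-12) of cells with and without Cd40 under both cytokines, intervals that overlap. Cells of 1 library are not replicates, and these shares describe these cells.

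β-like cells with many transcripts of Hspa1a, the inducible heat-shock protein gene, less often had a UMI of several members that a treatment raised. The difference was not tested. Shares of Ceacam1, and of Cd40 with IL-1β, are not listed here. A limit of 10 Hspa1a UMIs per 10000, chosen with these data in view, put 87 thinned cells with IL-1β, 73 with IFN-γ and 81 of the combined library above it and 1030, 1189 and 1187 below. With IL-1β, 5.75% (1.89-12.9) of cells above the limit had Il4i1 and 38.1% (35.1-41.1) of those below, and Icam1 was in 6.90% and 31.7%. Cd274, low in this library, was in 4.6% and 5.53%. With IFN-γ, Cd274 was in 27.4% (17.6-39.1) and 59.6% (56.8-62.4).

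With both cytokines, the shares above and below that limit were 33.3% and 59.4% for Cd274, 40.7% and 59.4% for Icam1, 18.5% and 38.7% for Cd40, and 11.1% and 30.3% for Il4i1. For Cd47, high before treatment, they were 60.5% (49.0-71.2) and 72.7% (70.1-75.2), intervals that overlap. With IL-1β alone the Cd47 shares were 65.5% (54.6-75.4) and 78.35% (75.7-80.8), intervals that do not overlap. With IFN-γ alone they were 58.9% (46.8-70.3) and 72.75% (70.1-75.3), which overlap. Median depth before thinning was 12251 UMIs above the limit and 12309 below with both cytokines, but 6815 and 8638.5 with IL-1β. Between 8 and 12 UMIs per 10000 lay 36 cells of the combined library, 16 of the IL-1β and 17 of the IFN-γ library.

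**Figure D5:**
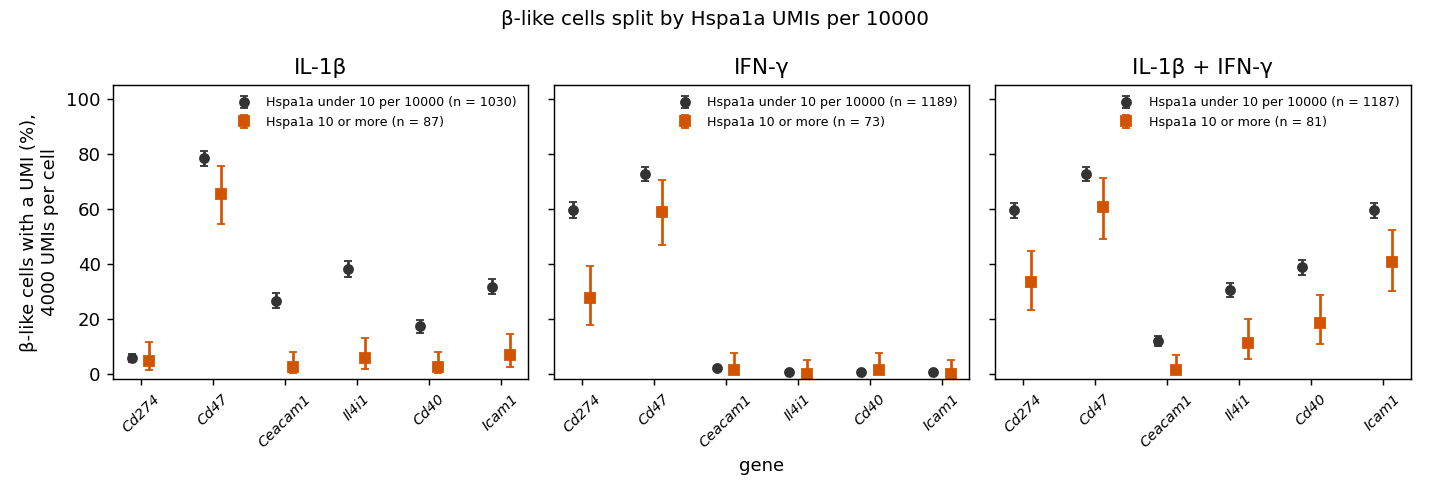
Share of β-like cells with at least 1 UMI (%) after thinning to 4000 UMIs, for cells above and below 10 Hspa1a UMIs per 10000, in the 3 treated libraries, with exact binomial 95% intervals. Cells above the limit lie lower for several genes that a treatment raised, as for Il4i1 with IL-1β at 5.75% against 38.1%.

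Related genes were grouped in lists by function. Of 22 further costimulatory and coinhibitory ligands and regulators, 7 passed the level filter in β-like cells, and 4 of them were at least 2-fold higher with both cytokines, 3 with IL-1β and 3 with IFN-γ, none lower, beside 9.82%, 14.9% and 3.79% of all genes. Lgals9, which encodes galectin-9, a ligand of the T-cell receptor TIM-3, had 0.498, 1.86, 12 and 26.6 CPM, a rise of 53.4-fold (28.8-112) with both. Nectin2, a ligand of the NK- and T-cell receptors DNAM-1 and TIGIT, had 6.68, 17.4, 9.05 and 26.2 CPM, and Cd200, an inhibitory ligand for myeloid cells, 16.7, 26.2, 34.5 and 37.1 CPM. With hormone genes out of the totals, 8 genes of the list passed the filter. Of these, 4, 3 and 2 were higher with both, with IL-1β and with IFN-γ, beside 7.75%, 6.56% and 2.29% of all genes. On that scale Cd200 no longer counted with both or with IFN-γ, nor Nectin2 with IL-1β, while Pvr, which did not pass the filter before, counted with both and with IL-1β. The median log2 change of the 7 with both was 1.11 beside 0.07 over all genes. Lgals9, Cd24a and Tnfsf9 were under 5 CPM untreated and passed the filter only through treated libraries.

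Of 17 other leukocyte adhesion genes, 10 passed the filter and 3 rose at least 2-fold with both and with IL-1β, none with IFN-γ, beside the same shares of all genes. Their median log2 change with both was 0.24, close to the 0.07 of all genes. With hormone genes out of the totals the counts were again 3, 3 and 0, beside 7.75%, 6.56% and 2.29% of all genes. The median with both on that scale was -0.0048 beside -0.19. Cd9 was under 5 CPM untreated and passed the filter only through the libraries with IL-1β. F11r, the gene of the junctional adhesion molecule JAM-A, had 5.83, 57.8, 7.67 and 42.3 CPM, the tetraspanin gene Cd9 3.14, 40.1, 3.8 and 17.8 CPM, and Alcam, a ligand of CD6, 37.4, 184, 70.5 and 137 CPM. All 3 were highest with IL-1β alone, as Ceacam1 and Il4i1 were.

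The leukocyte partners of the members were measured chiefly in macrophage-like cells. Of 12 partner genes, Itgb1 and Sirpa passed the filter in β-like cells and neither changed 2-fold with both. With hormone genes out of the totals, Sirpa counted as lower with both, as did 1221 of all 10042 genes. In macrophage-like cells Itgb2, the β subunit of LFA-1, had 205, 253, 301 and 332 CPM, Itgal, its α subunit, 70.7, 28.7, 56.2 and 52.2 CPM, and Sirpa, the receptor of CD47, 293, 239, 204 and 183 CPM. Havcr2, the gene of TIM-3, had 47.1, 66.9, 85.7 and 93.2 CPM there. Pdcd1 and Cd40lg, the T-cell partners of Cd274 and Cd40, belong to cells whose markers were at 0 among the β-like cells.

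The genes most like each member were taken as the 3 with the highest Pearson r of log2 CPM over 30 points, each 1 class in 1 library with at least 15 cells, among 8689 genes. The points share libraries, depths and cell classes, and r is given as a description. For Cd274 they included Nlrc5, the transactivator of MHC class I genes (0.93), and Tap1, the peptide transporter (0.89). For Icam1 they were Neurl3, Mvp and Chmp4b (each 0.88), for Cd40 Tnfrsf1a (0.86), Clic4 (0.84) and Arid5a (0.83), and for Cd47 they included Tax1bp1 (0.85) and Irf2 (0.79). Il4i1 reached 0.73 with Cebpg, Vcam1 0.91 with Pla2g4a, and Ceacam1 no more than 0.65, with Ghitm. Between members, r was 0.69 for Cd40 and Icam1 and 0.27 for Cd274 and Icam1.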

How the data were processed

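Single cells of mouse islets were measured by scRNA-seq in 4 libraries of 1 condition each. The authors deposited raw UMI counts per gene and barcode, made with Cell Ranger on the mm10 build per the submitters' processing notes, without normalization, and the matrix headers give software 3.0.0. The labels and the study's methods name different kit versions. Members and gene lists were chosen with earlier results of these data known. Cells were classed from hormone UMIs (at least 3% of UMIs) or from at least 3 markers of 1 type. In β-like, α-like and δ-like cells the leading hormone made up at least 80% of insulin, glucagon and somatostatin UMIs. Pancreatic polypeptide was not in that total and only had to be lower than the leading hormone. In PP-like cells it made up at least 80% of all these hormone UMIs. Endocrine cells with more than 4 markers of another type were left out. The limits of this rule were set after the tables had been seen.

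Members of the lists were named where they changed 2-fold with both cytokines in β-like cells. The floor against no counts was 3 UMIs. Python 3.11.15, numpy 2.4.6, scipy 1.17.1, pandas 2.3.3, scanpy 1.11.5, scikit-learn 1.9.0, igraph 0.11.9 and matplotlib 3.10.9 were used. Gene positions came from GENCODE M21, which matched 30934 of the 31053 genes. The calculation was tested on simulated data. Doublets were limited only by the upper gene limit: Scrublet called 13 of 10766 barcodes, 0.121%, which is too few to count as working. Alternatives were a mitochondrial limit of 20%, no upper limit on genes, classes from clustering, thinning, other pseudocounts and level filters, hormone genes left out of the totals and Scrublet calls removed. Some genes and 1 motif are not reported here.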

Additional observations from a re-analysis of the deposited data

Results flagged for a closer look

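Ceacam1 with IL-1β moved in opposite directions in different classes of cells. In acinar-like cells the level with IL-1β was 0.231 times (0.0426-0.829) the untreated one, from 3 and 14 UMIs in 16 and 8 cells. It was 33.6 times (25.6-44.9) the untreated level in β-like cells, 12.6 times (2.01-521) in δ-like cells and 6.97 times (1.48-65.4) in endothelial-like cells. The difference between these classes was not tested, since each value rests on 1 library per condition, and 2 of the 8 untreated acinar-like cells held all 14 UMIs.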

How the results depend on the processing

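No β-like ratio to untreated cells of the 6 members that passed the level filter changed direction under the alternatives. The median log2 change of all genes did, with hormone genes left out of the totals in β-like cells (0.39, 0.31 and 0.07 to -0.06, -0.01 and -0.19 with IL-1β, IFN-γ and both), in α-like cells with IFN-γ under the same change (0.08 to -0.01), in α-like cells with IL-1β and with both under classes from clustering (-0.06 to 0.39 and -0.17 to 0.26) and in δ-like cells with IL-1β at a mean of at least 20 CPM (-0.01 to 0.06). The count of members at least 2-fold higher with IFN-γ in β-like cells went from 4 to 2 (Cd274 and Cd47) with a pseudocount of 5 CPM, to 3 without Cd40 with no upper gene limit, and to 3 without Cd47 with hormone genes left out of the totals. In α-like cells with IL-1β it went from 2 to 1 with a pseudocount of 5 CPM or a mean of at least 20 CPM, and in δ-like cells with IL-1β from 5 to 3 with a mean of at least 20 CPM, where fewer genes are tested. In all, 117 counts of members stayed within 1.5 times, those that went from 4 to 3 among them, and 4 moved further. Of the β-like ratios, 117 stayed within the interval of the main value and 27 did not, 15 of them with the pseudocount of 5 CPM. With β-like cells thinned, the ratio of Icam1 to untreated cells went from 307 to 129 with IL-1β and from 903 to 365 with both, and that of Il4i1 from 216, 2.19 and 168 to 464, 5.01 and 351 with IL-1β, IFN-γ and both, and the cause was not tested. Among all genes higher in β-like cells, the count ranged over the alternatives from 659 to 1721 with IL-1β (main value 1373), 211 to 460 with IFN-γ (349), 610 to 1195 with both (905), 96 to 260 with both against IL-1β (162) and 254 to 607 with both against IFN-γ (413). Lower genes ranged from 89 to 877 (269), 2 to 68 (7), 213 to 1221 (597), 97 to 489 (341) and 329 to 1215 (834). In α-like cells the higher counts ranged from 415 to 3967 (785), 231 to 4024 (544) and 519 to 3928 (895), the upper ends with classes from clustering, where 4 untreated α-like cells remained, and the lower counts from 327 to 2094 (859), 40 to 1696 (170) and 524 to 2902 (1339). In δ-like cells the higher counts ranged from 599 to 2419 (1141), 276 to 1510 (678) and 711 to 2272 (1199), and the lower from 442 to 2570 (1239), 143 to 1349 (547) and 925 to 3717 (2159). No paired analysis was possible because each condition had 1 library, and for the same reason no replicate could be left out. Levels under 3 UMIs and classes of under 20 cells are limited by depth. Leaving out the δ-like cell with most Icam1 UMIs in each treated library, an alternative chosen after seeing the data, gave ratios to untreated cells of 58.3, 2.19 and 273 with IL-1β, IFN-γ and both. The same for Cd40 in β-like cells, also chosen after seeing the data, gave 191, 4.99 and 604. With hormone genes out of the totals, Ceacam1 with both against IL-1β in β-like cells went from 0.444 to 0.512.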

Other observations

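Further costimulatory and adhesion genes were measured in the non-endocrine cells. In macrophage-like cells Cd86, a ligand of CD28 and CTLA-4 on T cells, had 111, 219.9, 293 and 295 CPM in the order untreated, IL-1β, IFN-γ and both, from 33, 46, 99 and 79 UMIs. Cd80, the other ligand of these receptors, had 1, 5, 0 and 1 UMIs. Thbs1, the gene of thrombospondin-1, which binds CD47, had 23.6, 277, 2.96 and 0 CPM there, with 58 of its 66 UMIs in the library with IL-1β alone.

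In endothelial-like cells, Cd200 had 231, 589, 777 and 889.9 CPM, so that each treated library stood above the untreated one. Lgals9 had 14.8, 48.0, 361 and 416 CPM from 3, 7, 104 and 85 UMIs, high in the libraries with IFN-γ as Cd274 was. Selp, the gene of P-selectin, was found only with IL-1β, at 14 UMIs (95.95 CPM), and Sele was at 0 in all 4 libraries. Ido1, a tryptophan-degrading enzyme gene, had 8 UMIs with IFN-γ and 5 with both and none in the other libraries. Since each class held 22 to 46 cells in a library, these values carry wide counting intervals.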
